A study of Mus musculus with 6 samples.

Results

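The comparison described here sets a mouse jejunal enteroid line with a high PLAGL2 level, clone 3, against a GFP control line. Differences were taken between 4 of the study's 6 libraries, clone 3 at passages 5 and 7 and GFP at passages 5 and 7. These were chosen by their labels and compared within each passage. The 2 libraries of another PLAGL2 line, clone 1, also entered the fit and the filter on low values. Standard errors, p-values and calls therefore rest on all 6 libraries. PLAGL2 is a zinc finger factor and belongs to the PLAG family, which binds GC-rich DNA and is expressed more widely before birth than after it. Enteroids are three-dimensional epithelial cultures that hold intestinal stem cells together with their absorptive and secretory descendants. Absorptive enterocytes carry brush border enzymes and transporters. The secretory types are mucus-making goblet cells, antimicrobial Paneth cells, hormone-making enteroendocrine cells and chemosensory tuft cells, and the factor Atoh1 opens the secretory path that Notch signalling holds back.

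All lines were C57BL/6 and grew in serum-free ENR medium, with no treatment beyond the transgene. The control expressed GFP and clone 3 expressed PLAGL2, both constitutively from a piggyBac transposon, which inserts into the genome. The labels call the PLAGL2 level of clone 3 high, and that of clone 1, the third line, low. Each line is a single transfected culture sampled at 2 passages. Passage was a block in the fit, so the p-values rest on how far the change between passages differed among the 3 lines. They do not measure the spread between separate transfections. A difference that arose in one line by chance therefore cannot be told apart from one that follows PLAGL2. No untransfected line was used here, so a change in clone 3 cannot be told apart from an opposite change in the GFP line.

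Values are RPKM, that is read counts scaled to gene length and library size, and changes are differences in log2(RPKM + 0.5), clone 3 minus GFP, with standard errors (SE) from limma-trend. A gene was called when its Benjamini-Hochberg adjusted p over all 16314 tested genes was under 0.05 in the fit with passage as a replicate block. Depth was even, at 13779306 to 17319950 reads a library. Mitochondrially encoded genes made up 10.83% and 13.03% of the summed RPKM in GFP and 10.67% and 12.17% in clone 3, at passages 5 and 7.

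Clone 3 had more of 199 genes and less of 143. These are 1.22% and 0.877% of the genes tested. Of the 342 genes called, 315 were protein-coding, 0 had opposite signs at the 2 passages, and in 323 the ranges of the 2 lines did not overlap. The call favours genes whose 2 passage differences agree, so the last 2 counts are no separate evidence of agreement. Ranges were not compared over all genes. The median log2 change was 1.04 among the higher and -0.93 among the lower genes, and the smallest called changes were 0.31 and -0.32. Without the replicate block 32 genes were higher (0.196%) and 25 lower (0.153%), and all 57 were among the 342. The counts also rested on every library. Without GFP at passage 5, or without GFP at passage 7, 1 gene was higher (Cyp2w1) and 1 lower (Zg16). Without clone 3 at passage 5 the counts were 5 and 9, without clone 3 at passage 7 they were 13 and 9, and without clone 1 at passage 5 or 7 they were 19 and 13 or 18 and 13. Median centring of the libraries gave 187 and 185, no filter on low values 51 and 40, and voom on recovered reads 861 and 635. Before adjustment 1810 of the 16314 genes were higher and 1367 lower at p under 0.05 by limma-trend. Unadjusted and voom counts of list members are to be read beside these totals.

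Over all tested genes the 2 passages agreed only in part. At least a 2-fold rise at both passages was seen in 210 genes (1.29%) and a fall of that size at both in 128 (0.785%), while 920 genes differed by 2-fold or more at passage 5, 1044 at passage 7 and 127 at both in opposite directions. A value above GFP at both passages was found for 5462 genes (33.5%) and one below GFP at both for 4865 (29.8%). The 2 passages' differences had a Pearson r of 0.38 across the 16314 genes, which are not independent replicates, and each passage has its own GFP library. Of the genes past 2-fold at both passages, 114 higher and 73 lower ones were not called. With a pseudocount of 0.1 the 2-fold counts at both passages were 359 and 217, and with 1 they were 104 and 64.

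**Figure D1:**
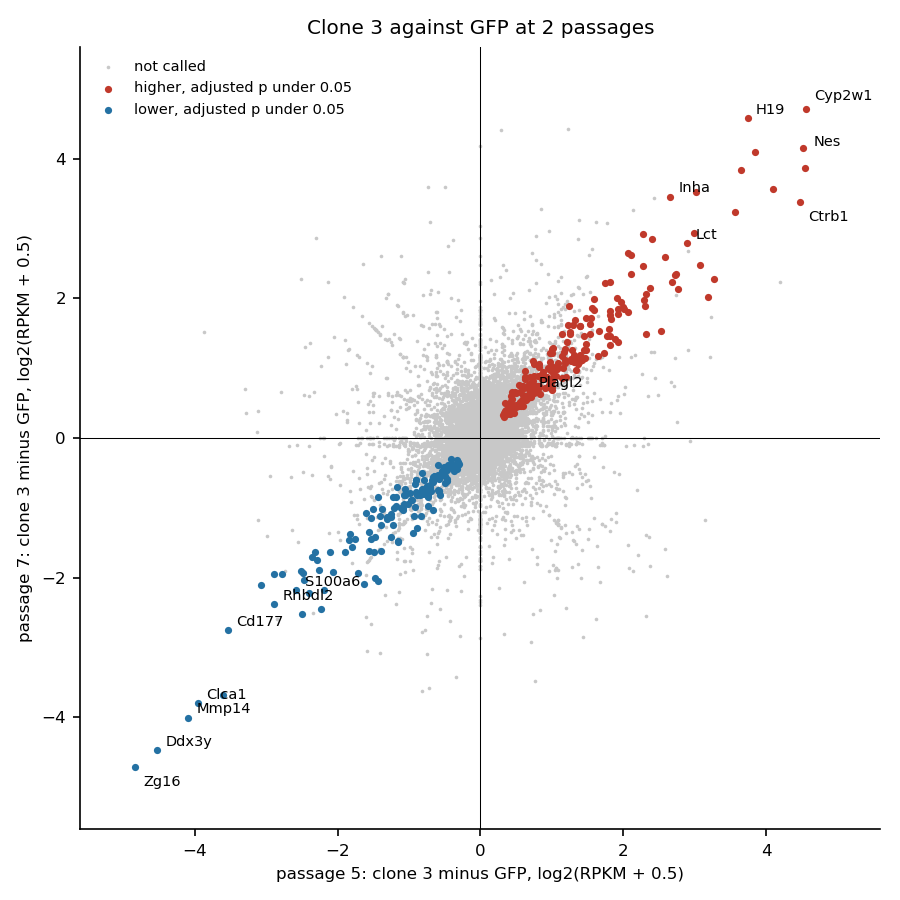
Each point is 1 of 16314 genes, with its difference between clone 3 and GFP at passage 5 on the x axis and at passage 7 on the y axis, both in log2(RPKM + 0.5). Red points are the 199 genes called higher and blue points the 143 called lower. They lie along the diagonal, which the call favours, while most uncalled genes crowd around 0.

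Plagl2 (chromosome 2, 153227759 to 153241426, minus strand, mm10) was at an RPKM of 22.8 and 23.1 in GFP at passages 5 and 7 and at 37.2 and 37.2 in clone 3. This is a rise of 0.68 on the log2 scale (SE 0.07, adjusted p = 0.0358), and it was not called without the replicate block (adjusted p = 0.0793, with 0.000688 to 0.265 across all alternatives). In clone 1 the values were 30.9 and 26.5. Both clone 3 libraries thus lay above both clone 1 libraries, and those above both GFP libraries, in the order of the labels. Only reads assigned to the mouse gene are counted, and the labels do not say whether the introduced sequence is of mouse.

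The cultures held epithelial transcripts throughout. Epcam, an epithelial adhesion molecule, was at 512 and 554 in GFP and 485 and 511 in clone 3, and Cdx2, the intestinal homeobox factor, was at 80.7 and 91.1 against 99.2 and 120. Of the 6 fibroblast and muscle markers the collagen gene Col3a1 and Dcn were at 0 in all 6 libraries, and the 6 markers summed to an RPKM of 0.776 and 0.989 in GFP and 1.03 and 0.505 in clone 3. A wider list of 19 such genes summed to 42.2 and 34.4 in GFP and 39.4 and 32.2 in clone 3, most of it from Fbln1, a matrix protein, at 37.5 and 29.6 against 34.9 and 28.3. Of the 5 immune and blood markers Hba-a1 was at 0 in all 6, and the sum, nearly all of it from Cd68, was 2.99 and 5.23 in GFP and 2.69 and 5.97 in clone 3. The wider immune and blood list summed to 6.87 and 9.49 against 6.58 and 9.72. The 20 endothelial and neural genes summed to 5.93 and 6.76 in GFP and 6.57 and 9.46 in clone 3, and their part in the results was not tested. Of the wider lists of such cell types 4 fibroblast and muscle, 6 immune and 6 endothelial and neural genes passed the filter, and limma-trend called 0 of the 16, while at an unadjusted p below 0.05 there were 3 above and 2 below GFP, and 2 and 1 by voom. Over all tested genes these counts were 1810 and 1367, and 861 and 635 by voom.

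Among the 15 largest rises were genes at low levels in GFP. Cyp2w1 (chromosome 5, 139352617 to 139357033, plus strand), a cytochrome P450 enzyme, was at 1.28 and 1.30 in GFP and 41.3 and 46.7 in clone 3, a log2 change of 4.64 (SE 0.08, adjusted p = 0.00105). It was the only named gene that passed in all 16 alternative settings (adjusted p 1.1e-05 to 0.035). Nes (chromosome 3, 87971078 to 87980451, plus strand), which encodes nestin, an intermediate filament protein of progenitor cells, was at 0.178 and 0.272 in GFP and 15 and 13.2 in clone 3, a log2 change of 4.33 (SE 0.13, adjusted p = 0.00352). Gpc3 (chromosome X, 52272426 to 52613950, minus strand), a heparan sulfate proteoglycan anchored to the cell surface and abundant in embryonic tissue, was at 0.157 and 0.0809 against 8.92 and 9.39, a log2 change of 3.97 (SE 0.14, adjusted p = 0.00553). For these genes the clone 1 values lay between those of the other lines, at 8.52 and 9.99 for Cyp2w1, 5.19 and 5.95 for Nes and 1.48 and 1.52 for Gpc3. Clone 1 shares its GFP libraries with clone 3, so its values are set beside them and not counted as a second test.

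H19 (chromosome 7, 142575529 to 142578143, minus strand), an imprinted long non-coding RNA of fetal tissues, had 1 and 0 reads in GFP and 258 and 412 in clone 3. Scaled to library size this is a ratio of 641, with an exact 95% counting interval of 115 to 25400 that covers counting error only. In RPKM it was at 0.0254 and 0 against 6.53 and 11.5, which is 4.16 on the log2 scale (SE 0.26, adjusted p = 0.0145). Inha, the inhibin alpha subunit, had 0 and 2 reads against 65 and 135, a ratio of 95.7 (26.2 to 796), and a log2 change of 3.05 (SE 0.28, adjusted p = 0.0296; 0.114 unblocked, range 0.00141 to 0.158). Outside clone 3, Inha reached the filter's RPKM of 0.5 in 1 library, clone 1 at passage 7 (0.879). It thus passed the filter only with the clone 3 libraries, so the filter itself favoured a rise. H19 and Inha were both higher at passage 7 than at passage 5 in clone 3, with 1 library at each passage.

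Several of the other large rises were in enzymes, transporters and secreted proteins. Sdr16c5, a retinol dehydrogenase, was at 0.192 and 0.463 in GFP and 15.7 and 13.6 in clone 3 (log2 difference 4.21, SE 0.19, adjusted p = 0.0089). Aspg, an asparaginase, was at 0.970 and 0.611 against 17.9 and 15.3 (log2 change 3.74, SE 0.11, adjusted p = 0.00308). Ctrb1, the precursor of the pancreatic protease chymotrypsin, reached the highest level of the 15 largest rises, from 18.3 and 20.6 to 418 and 219 (log2 change 3.93, SE 0.26, adjusted p = 0.0157). Slc28a2, a sodium-coupled nucleoside transporter, was at 0.0859 and 0.310 against 6.40 and 7.17 (log2 change 3.40, SE 0.14, adjusted p = 0.0086). Emid1, an extracellular protein with an EMI domain, was at 0.417 and 1.28 against 15.3 and 20.7 (log2 change 3.84, SE 0.17, adjusted p = 0.0086). In each of these genes both clone 3 libraries lay far above both GFP libraries.

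Signalling and surface molecules were also among the 15 largest rises. Fyn, a Src family tyrosine kinase, was at 0.0828 and 0.216 in GFP and 4.13 and 4.97 in clone 3 (log2 difference 2.96, SE 0.14, adjusted p = 0.00957). Hif3a, a hypoxia-inducible factor subunit, was at 3.30 and 2.68 against 31.6 and 17.2 (log2 change 2.78, SE 0.17, adjusted p = 0.0138; 0.0693 without the block, range 1.53e-05 to 0.0793). Podxl, a sialomucin of the apical surface, was at 0.911 and 1.36 against 6.95 and 12.95 (log2 change 2.63, SE 0.30, adjusted p = 0.0381; 0.0623 without the block, range 0.00139 to 0.269). Cxxc5, a CXXC zinc finger protein, was at 1.246 and 2.365 against 9.94 and 16.8 (log2 change 2.59, SE 0.11, adjusted p = 0.0086; 0.0693 without the block, range 9.55e-05 to 0.144). The clone 3 and GFP ranges did not overlap for any of the 4.

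**Figure D2:**
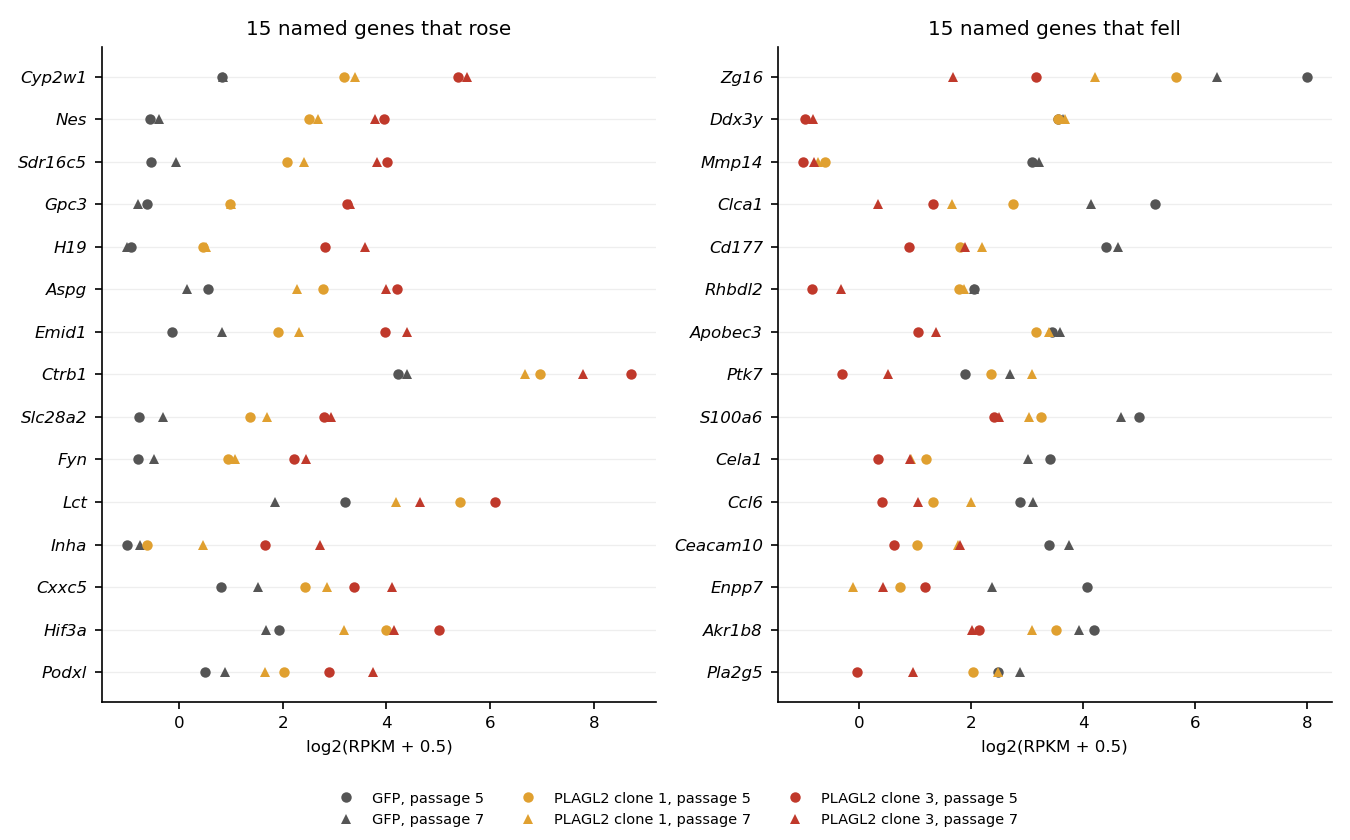
The x axis is log2(RPKM + 0.5) and each row a gene, the 15 largest rises on the left and the 15 largest falls on the right. Grey marks are GFP, yellow PLAGL2 clone 1 and red PLAGL2 clone 3, with circles for passage 5 and triangles for passage 7, 1 library each, so no error bars are drawn. Red marks lie to the right of grey ones in all 15 rows on the left and to the left of them in all 15 rows on the right.

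The promoters of the most strongly risen genes were searched for a PLAG-type motif because PLAGL2 is a DNA-binding factor of that family. The motif searched was GGGGC, then 6 to 8 bases of any kind, then GGG, on both strands of the 250 bases before the RefSeq transcription start (build GRCm38.p6, the patched form of mm10). Of the 15 largest rises 11 had an entry and 6 of these a match. The first 4 of them by size of change are shown, 5′ to 3′ on the gene's strand, with the fixed bases of each match in capitals. In Cyp2w1, Gpc3 and Aspg the match is on the other strand, so it reads CCC, a spacer and GCCCC.
Cyp2w1, chr5:139352366-139352615, plus strand: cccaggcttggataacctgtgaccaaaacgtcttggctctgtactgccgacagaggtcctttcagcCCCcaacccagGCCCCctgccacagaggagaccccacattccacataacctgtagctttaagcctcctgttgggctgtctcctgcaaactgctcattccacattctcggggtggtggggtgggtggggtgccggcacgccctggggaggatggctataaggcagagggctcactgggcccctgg
Gpc3, chrX:52613975-52614224, minus strand: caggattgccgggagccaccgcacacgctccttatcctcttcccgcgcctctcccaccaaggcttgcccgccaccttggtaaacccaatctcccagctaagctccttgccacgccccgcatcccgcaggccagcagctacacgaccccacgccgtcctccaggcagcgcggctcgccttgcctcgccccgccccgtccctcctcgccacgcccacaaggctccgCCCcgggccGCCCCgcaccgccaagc
Aspg, chr12:112106433-112106682, plus strand: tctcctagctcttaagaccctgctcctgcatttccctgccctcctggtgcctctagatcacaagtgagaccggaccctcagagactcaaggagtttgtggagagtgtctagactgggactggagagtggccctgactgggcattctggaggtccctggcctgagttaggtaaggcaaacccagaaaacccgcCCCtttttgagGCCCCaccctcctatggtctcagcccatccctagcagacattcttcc
Emid1, chr11:5152231-5152480, minus strand: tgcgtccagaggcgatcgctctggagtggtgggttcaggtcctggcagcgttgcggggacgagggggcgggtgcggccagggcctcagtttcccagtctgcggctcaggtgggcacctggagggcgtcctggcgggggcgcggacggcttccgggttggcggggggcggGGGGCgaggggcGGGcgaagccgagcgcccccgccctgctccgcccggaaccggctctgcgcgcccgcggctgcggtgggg
The motif is common. It was present before 24.9% of the 9943 tested genes with an entry, before 32.1% of the 131 higher genes with one and before 27.5% of the 109 lower genes with one. With AGG in place of GGG after the spacer the shares were 19.4%, 26.7% and 21.1%, and with GAGGC in place of GGGGC before it they were 13.8%, 16.8% and 8.3%. The 3 motifs can share bases where they overlap. A match is a string of letters and not a bound site.

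Among the 15 largest falls were proteins of the mucus, the Y-linked helicase gene Ddx3y and a matrix protease. Zg16 (chromosome 7, 127050156 to 127087328, minus strand), a lectin-like mucus protein from goblet cells, was at 255 and 83.4 in GFP and 8.40 and 2.71 in clone 3, a log2 change of -4.77 (SE 0.06, adjusted p = 0.000448; 0.114 unblocked, range 4.6e-06 to 0.146). Clca1, a metalloprotease of the mucus, was at 38.3 and 17.1 against 2.004 and 0.768 (log2 change -3.87, SE 0.08, adjusted p = 0.00161; 0.0858 without the block, range 5.54e-06 to 0.0858). Both genes were lower at passage 7 than at passage 5 in all 3 lines, clone 1 included (50.2 and 18.0 for Zg16, 6.26 and 2.65 for Clca1). Ccl6, a chemokine on the goblet list, was at 6.88 and 8.09 against 0.836 and 1.59 (log2 change -2.25, SE 0.16, adjusted p = 0.0168; 0.079 without the block, range 0.000663 to 0.168). For Zg16 and Clca1 the difference between the lines was almost the same at both passages, at -4.84 and -4.71 for the first and -3.95 and -3.79 for the second.

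Mmp14 (chromosome 14, 54431612 to 54445364, plus strand), a membrane-anchored matrix metalloproteinase, was at 8.001 and 8.747 in GFP and 0 and 0.0766 in clone 3, or 345 and 313 reads against 0 and 3. The ratio of clone 3 to GFP was 0.00436 after scaling to library size (exact 95% counting interval 0.000898 to 0.0128), and on the log2 scale the change was -4.05 (SE 0.18, adjusted p = 0.0086). Mmp14 passed the filter on low values through the GFP libraries alone, so it had to differ. Rhbdl2, a rhomboid protease within membranes, was at 3.63 and 3.66 against 0.0586 and 0.302 (log2 change -2.63, SE 0.18, adjusted p = 0.0168). Its clone 1 values, 2.95 and 3.17, stayed near those of GFP, whereas Mmp14 in clone 1 was at 0.156 and 0.0998. Ptk7, a receptor-like protein of planar cell polarity, was at 3.20 and 6.00 in GFP, 4.61 and 7.96 in clone 1 and 0.310 and 0.935 in clone 3 (log2 difference -2.19, SE 0.11, adjusted p = 0.00957; 0.169 without the block, range 0.000254 to 0.169).

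Genes of defence and of lipid and carbonyl metabolism made up much of the rest. Apobec3, a cytidine deaminase that restricts retroviruses, was at 10.5 and 11.5 in GFP and 1.58 and 2.08 in clone 3, a log2 difference of -2.30 (SE 0.08, adjusted p = 0.00592), and at 8.48 and 10.1 in clone 1. Ceacam10 and Cd177, neighbours on chromosome 7 with 16894 bases between them, were at 10.1 and 13.01 against 1.04 and 2.99 and at 20.9 and 24.3 against 1.35 and 3.20 (log2 changes -2.37 and -3.14, SE 0.22 and 0.21, adjusted p 0.0296 and 0.0157). Cd177 is a surface glycoprotein known from neutrophils, and Ceacam10 a secreted member of the carcinoembryonic antigen family. Without the block Cd177 passed and Ceacam10 did not (adjusted p = 0.157, range 0.00155 to 0.204). Akr1b8, an aldo-keto reductase, was at 17.9 and 14.8 against 3.92 and 3.54 (log2 change -1.99, SE 0.09, adjusted p = 0.00957). Cela1, an elastase, was at 10.2 and 7.57 against 0.762 and 1.38 (log2 change -2.59, SE 0.27, adjusted p = 0.034). Enpp7, the intestinal alkaline sphingomyelinase, was at 16.3 and 4.67 against 1.77 and 0.844 (log2 change -2.42, SE 0.27, adjusted p = 0.0378; 0.287 without the block, range 0.000196 to 0.294). Pla2g5, a secreted phospholipase, was at 5.10 and 6.79 against 0.479 and 1.45 (log2 change -2.21, SE 0.19, adjusted p = 0.0267; 0.121 without the block, range 0.000788 to 0.226).

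Goblet cell genes were lower in clone 3 across nearly the whole list. Of 23 tested members 13 fell and 0 rose, against 0.877% and 1.22% of all genes, and 21 lay below GFP at both passages, against 29.8% of all genes. The median log2 change was -1.08, at -1.19 and -0.91 for passages 5 and 7, where all genes had a median of 0.014. This list and all the others were written with earlier results of these data known, so their directions are no independent evidence. In bulk RNA, fewer cells of a type and less RNA per cell cannot be told apart. Without the replicate block 4 of the 13 passed (Muc2, Fcgbp, Ern2 and Agr2), and without GFP at passage 5, or without GFP at passage 7, Zg16 was the one member that did.

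The goblet genes that fell ran from the secretory factors to the mucus itself. Atoh1, the transcription factor that starts the secretory fate, was at 10.8 and 10.8 in GFP and 4.91 and 5.91 in clone 3 (log2 difference -0.94, SE 0.09, adjusted p = 0.0297). Creb3l1, a membrane-bound factor of secretory cells, was at 11.96 and 16.25 against 4.98 and 8.03 (log2 change -1.08, SE 0.08, adjusted p = 0.0185). Muc2, the gel-forming mucin, was at 112 and 81.1 against 25.6 and 25.8 (log2 change -1.87, SE 0.12, adjusted p = 0.0145). Fcgbp, which binds to that mucin, was at 263 and 214 against 70.4 and 68.9 (log2 change -1.76, SE 0.08, adjusted p = 0.0089). Tff3, the trefoil peptide of mucus, was at 923 and 745 against 325 and 367 (log2 change -1.26, SE 0.13, adjusted p = 0.0325). Agr2 and Ern2, both of the endoplasmic reticulum of mucous cells, had log2 changes of -1.17 (SE 0.06) and -1.60 (SE 0.11). In all of these genes the higher clone 3 library lay below the lower GFP library. Clone 1 values lay between them for Muc2 (52.5 and 46.9), Fcgbp (147 and 143) and Tff3 (642 and 584), while Creb3l1 in clone 1, at 10.5 and 16.4, overlapped GFP. Spdef, the goblet maturation factor, was at 10.2 and 11.1 against 6.06 and 7.91 and was not called (log2 change -0.59, SE 0.08, adjusted p = 0.0542).

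Paneth cell genes moved in both directions. Of 21 tested members 7 fell and 1 rose, against 0.877% and 1.22% of all genes, 14 lay below GFP at both passages and 6 above, against 29.8% and 33.5%, and the median was -0.48, at -0.66 and -0.21 for passages 5 and 7. Lyz1, the Paneth lysozyme, was at 704 and 740 in GFP and 198 and 284 in clone 3 (log2 difference -1.60, SE 0.12, adjusted p = 0.0187). Itln1, a lectin that binds microbial sugars, was at 702 and 759 against 411 and 438 (log2 change -0.78, SE 0.05, adjusted p = 0.0145). Defa24, an alpha-defensin, was at 1266 and 1329 against 676 and 873 (log2 change -0.76, SE 0.09, adjusted p = 0.0458), and Defa26 also fell. The defensin genes are near copies of each other and reads could be split between them, so single members are uncertain. Mptx1, a pentraxin, was at 8.07 and 8.36 against 2.40 and 2.99 (log2 change -1.45, SE 0.11). Fgfrl1, an FGF receptor without a kinase domain, was the member that rose, from 8.37 and 10.2 to 20.7 and 30.2 (log2 change 1.39, SE 0.08, adjusted p = 0.0138). Of these 8 members 0 passed without the replicate block. Lyz1, Itln1 and Defa24 in clone 1, at 550 and 636, 636 and 669 and 1230 and 1335, lay nearer to GFP than to clone 3.

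Enteroendocrine genes showed 1 rise and 1 fall, against 1.22% and 0.877% of all genes, and a positive median. Of 31 tested members 20 lay above GFP at both passages, against 33.5% of all genes, with a median of 0.43 (0.19 at passage 5 and 0.62 at passage 7). Before adjustment 15 were higher and 2 lower at p under 0.05, and 10 and 1 by voom with the block. Over all tested genes these counts were 1810 and 1367, and 861 and 635 by voom. Ghrl, the hormone ghrelin, was the member called higher by limma-trend, from 17.5 and 23.8 to 23.7 and 34.5 (log2 change 0.48, SE 0.05, adjusted p = 0.0375). Its ranges overlapped, as clone 3 at passage 5 lay below GFP at passage 7. Clone 1 was below GFP at both passages for Ghrl, at 12.05 and 17.95. Sst, the hormone somatostatin, fell from 3.52 and 6.18 to 1.30 and 1.88 (log2 change -1.32, SE 0.15, adjusted p = 0.0375). Neither passed without the replicate block. Chgb, a granule protein of these cells, was at 109 and 149 against 150 and 266, and Neurog3, the factor of their precursors, at 6.49 and 9.10 against 9.90 and 18.1, with adjusted p of 0.0858 and 0.0696. The GFP value at passage 7 of Chgb, 149, was close to the clone 3 value at passage 5, 150.

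Among 21 tuft cell genes 14 lay below GFP at both passages, against 29.8% of all genes, and the median was -0.27. The called one, where 0.877% of all genes fell, was Plcg2, a phospholipase of their signalling, which was at 11.47 and 11.99 in GFP and 5.85 and 5.82 in clone 3 (log2 difference -0.95, SE 0.06, adjusted p = 0.0157), and it passed without the block as well. The defining genes Dclk1 and Pou2f3 were low in all libraries, at 1.54 and 2.65 and 2.84 and 3.75 in GFP and 1.45 and 1.99 and 1.88 and 3.18 in clone 3, and neither was called.

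**Figure D3:**
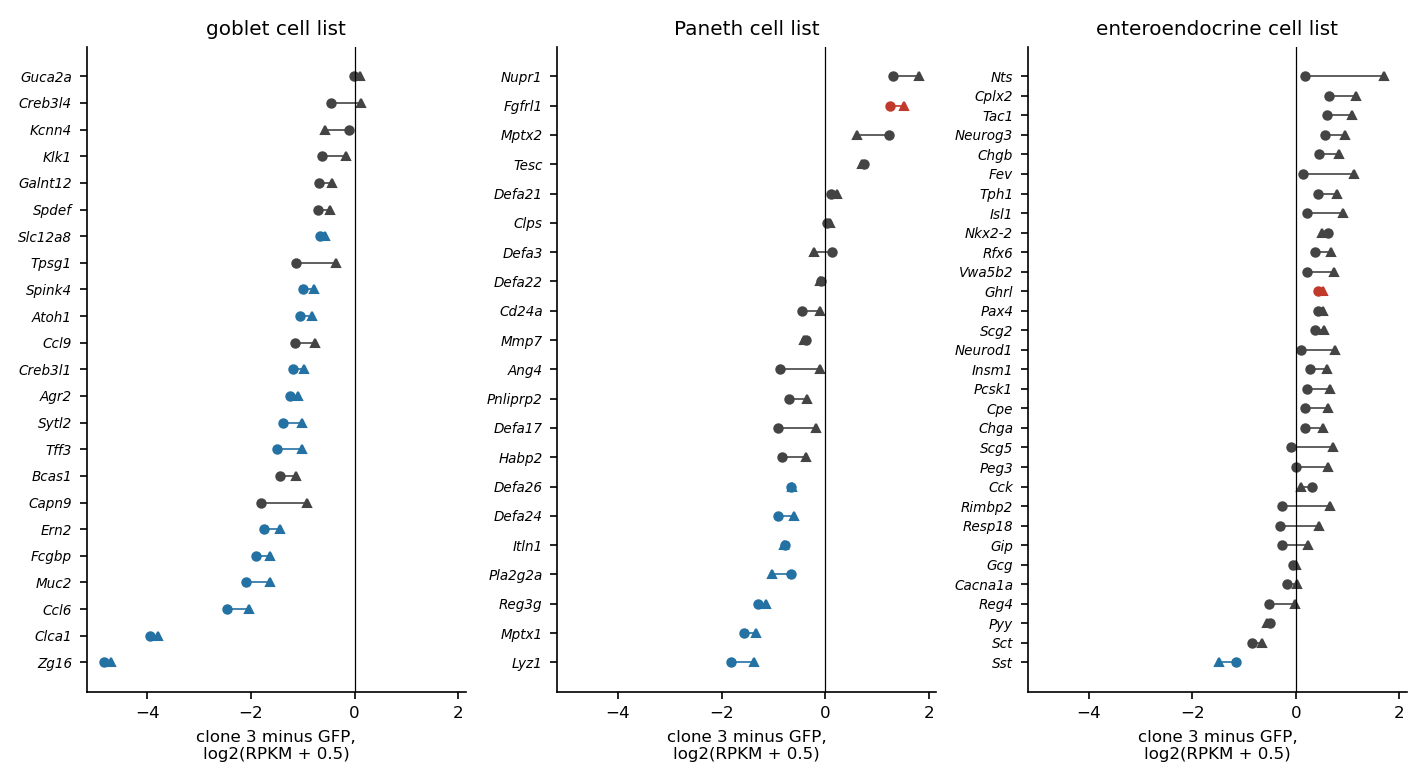
Each row is a tested member of the goblet, Paneth or enteroendocrine list, and the x axis is the difference between clone 3 and GFP in log2(RPKM + 0.5), with a circle for passage 5 and a triangle for passage 7. Blue members were called lower, red ones higher and grey ones were not called. The goblet panel lies almost wholly left of 0, the Paneth panel on both sides, and the enteroendocrine panel mostly right of 0, with Sst the called fall.

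Of 26 tested stem cell genes 2 rose and 0 fell, against 1.22% and 0.877% of all genes. Above GFP at both passages lay 14 of them and below it 6, against 33.5% and 29.8% of all genes, with a median of 0.22 (0.07 and 0.33 at passages 5 and 7). Msi1, an RNA-binding protein of stem and progenitor cells, rose from 4.02 and 7.26 to 8.44 and 12.3 (log2 change 0.85, SE 0.10, adjusted p = 0.0375). Rnf43, a membrane ubiquitin ligase that dampens Wnt receptors, rose from 20.1 and 25.3 to 25.7 and 36.0 (log2 change 0.42, SE 0.06, adjusted p = 0.0491). Lgr5 was at 25.7 and 41.3 against 39.2 and 75.6 and Ascl2 at 7.55 and 14.2 against 15.2 and 37.8, with adjusted p of 0.0616 and 0.0615. Olfm4, abundant in the crypt base, was at 807 and 1057 against 845 and 1407. Every one of these genes was higher at passage 7 than at passage 5 in both lines, and 0 of the 26 members passed without the block. Of 40 progenitor and cell cycle genes limma-trend called 0 (4 above and 5 below GFP at p under 0.05 before adjustment, 2 and 2 by voom with the block), and the median was 0.04. Over all tested genes these counts were 1810 and 1367, and 861 and 635 by voom. The smallest p on this list were those of Plk1, a mitotic kinase, at 46.6 and 58.1 against 36.8 and 45.1, and of Ccnd1, the G1 cyclin D1, at 38.6 and 43.7 against 49.7 and 53.2 (adjusted p 0.0532 and 0.111).

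Of 37 enterocyte genes 3 rose and 3 fell, against 1.22% and 0.877% of all genes. At both passages 18 lay below GFP and 14 above, with a median of -0.10. Before adjustment 15 were lower and 8 higher with p under 0.05, against 1367 and 1810 of all 16314 genes. Voom with the block called 14 lower and 8 higher, against 635 and 861 of 16309 genes. Lct, lactase, which digests milk sugar in the brush border, was at 8.70 and 3.13 in GFP and 67.8 and 24.6 in clone 3 (log2 difference 2.84, SE 0.07, adjusted p = 0.00177; 0.264 without the block, range 3e-06 to 0.264). Its clone 1 values were 42.2 and 17.6. Alpi, intestinal alkaline phosphatase, rose from 72.7 and 34.6 to 115 and 53.1 (log2 change 0.63, SE 0.06, adjusted p = 0.0325), and Slc2a2, the basolateral glucose transporter, from 39.7 and 13.6 to 52.3 and 18.3 (log2 change 0.41, SE 0.05, adjusted p = 0.0458). Rbp2, which carries retinol in the enterocyte, fell from 554 and 222 to 298 and 91.1 (log2 change -1.09, SE 0.13, adjusted p = 0.0381). Mme, the brush border peptidase neprilysin, fell from 57.2 and 25.7 to 30.1 and 16 (log2 change -0.79, SE 0.09, adjusted p = 0.0372), and Krt20, a keratin of mature cells, from 83.3 and 45.0 to 55.2 and 34.3 (log2 change -0.49, SE 0.06, adjusted p = 0.0464). All 6 were lower at passage 7 than at passage 5 in both lines, and 0 of the 6 passed without the block. For Alpi, Slc2a2, Rbp2, Mme and Krt20 the value of one line at one passage fell within the range of the other line.

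Among reported targets of PLAG family factors was H19. Of 15 tested PLAG family targets 12 lay above GFP at both passages, against 33.5% of all genes, and the median was 0.68. The called rises were 3, H19 and Cdkn1c among them, where 1.22% of all genes rose. Like all the lists, this one was drawn up with results of these cultures known, so its direction is no independent evidence. Cdkn1c, an imprinted inhibitor of the cell cycle, was at 2.84 and 3.04 in GFP and 8.70 and 7.35 in clone 3 (log2 difference 1.31, SE 0.13, adjusted p = 0.031). Both H19 and Cdkn1c passed without the block. H19 and Cdkn1c were also the called members among 29 imprinted genes, whose median was 0.05, where 1.22% of all genes rose. The fetal-like and YAP target list had 3 falls and 1 rise over 21 members, against 0.877% and 1.22% of all genes, and a median of -0.35. S100a6, a calcium-binding protein, fell from 31.4 and 25.03 to 4.84 and 5.17 (log2 change -2.38, SE 0.11, adjusted p = 0.00957) with and without the block, and Krt7 and Tspan8 fell too, while Msln, mesothelin, rose from 0.684 and 0.378 to 2.95 and 2.38 (log2 change 1.63, SE 0.15, adjusted p = 0.0296).

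Of 23 Wnt ligands and receptors 2 rose, and of 24 Wnt targets 3, where 1.22% of all genes rose. Wnt5a, a ligand of the branch that does not act through beta-catenin, was at 0.0385 and 0.0650 in GFP, 0.0960 and 0.182 in clone 1 and 1.40 and 1.34 in clone 3 (log2 difference 1.76, SE 0.22, adjusted p = 0.0435). It passed the filter on low values through the clone 3 libraries alone, so it had to differ and its call says nothing about the list. Ror2, its receptor, was at 5.69 and 7.00 against 8.69 and 12.1 (log2 change 0.66, SE 0.08, adjusted p = 0.0469). Of 21 FGF and IGF genes Fgf9, a secreted ligand, rose from 0.311 and 0.323 to 1.84 and 1.82 (log2 change 1.51, SE 0.17, adjusted p = 0.0369), and the receptors Fgfr2 and Fgfrl1 rose with it. Of 23 BMP, TGF-beta and activin genes Bmp1, a protease that processes matrix and ligands, rose from 1.17 and 1.45 to 5.86 and 6.51 (log2 change 1.89, SE 0.11, adjusted p = 0.013), Id2, an inhibitor of helix-loop-helix factors, from 4.88 and 7.83 to 9.88 and 16.2 (log2 change 0.98, SE 0.07), and Tgfbr2, a TGF-beta receptor, from 25.1 and 23.3 to 44.4 and 38.1 (log2 change 0.76, SE 0.08). Without the block Bmp1 was the one of these that passed. Of 27 Notch pathway genes 20 lay above GFP at both passages, against 33.5% of all genes (median 0.16), and the called one was Atoh1, which fell, as did 0.877% of all genes. Over all tested genes 1810 were above and 1367 below GFP at p under 0.05 before adjustment, and 861 and 635 by voom. Limma-trend called 0 of 12 EGF family genes (5 above and 1 below GFP at p under 0.05 before adjustment, 5 and 0 by voom) and 0 of 16 Hedgehog and planar polarity genes (3 and 2, and 2 and 1 by voom). In the EGF list Btc, an EGF receptor ligand, was at 4.19 and 4.29 against 6.74 and 7.36, and in the Hedgehog list Celsr1, a polarity cadherin, was at 1.39 and 1.79 against 0.304 and 0.318 (adjusted p 0.106 and 0.0534).

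Calls on the mucosal defence and inflammation list were falls. Of 28 tested members 5 fell and 0 rose, against 0.877% and 1.22% of all genes, 18 lay below GFP at both passages, against 29.8%, and the median was -0.34 (-0.46 and -0.16). Besides Cd177 these were Duox2, a hydrogen peroxide-producing oxidase, from 4.91 and 6.14 to 1.51 and 1.11 (log2 change -1.74, SE 0.20, adjusted p = 0.0375), Tnf, a cytokine, from 1.21 and 2.17 to 0.110 and 0.364 (log2 change -1.56, SE 0.20, adjusted p = 0.0481), Il18, a cytokine of epithelia, from 17.0 and 11.99 to 7.40 and 3.99 (log2 change -1.31, SE 0.14, adjusted p = 0.034), and Reg3g, an antibacterial lectin, from 18.7 and 29.5 to 7.30 and 13.2 (log2 change -1.22, SE 0.07, adjusted p = 0.0138). Of the 5, Cd177 was called without the block. Over all tested genes 1810 were above and 1367 below GFP at p under 0.05 before adjustment, and 861 and 635 by voom. Of 28 interferon response genes limma-trend called 0 (4 above and 4 below GFP at p under 0.05 before adjustment, 1 and 2 by voom), with a median of -0.06. The smallest p among them was that of Ifi27l2b, an interferon-induced gene, at 173 and 131 against 109 and 69.4 (adjusted p = 0.0633). H2-D1, a class I antigen-presenting molecule, was the called member of 18 antigen presentation genes, at 48.9 and 40.9 against 36.7 and 33.0, where 0.877% of all genes fell.

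Some calcium-binding S100 proteins and annexins fell. Of 21 tested members 5 fell, S100a6 among them, and 1 rose, against 0.877% and 1.22% of all genes, and 14 lay below GFP at both passages and 4 above (median -0.35). S100a11 was at 54.9 and 60.5 in GFP and 33.4 and 36.6 in clone 3 (log2 difference -0.71, SE 0.05, adjusted p = 0.0145), and Anxa4, which binds membrane phospholipids, at 296 and 306 against 225 and 233 (log2 change -0.40, SE 0.04, adjusted p = 0.0332). S100g, the intestinal vitamin D-dependent calcium-binding protein, rose from 9.03 and 3.93 to 18.9 and 10.4 (log2 change 1.16, SE 0.10, adjusted p = 0.0276). Intermediate filaments other than nestin that were called also fell. Lmna, the nuclear lamin A and C gene, was at 23.8 and 23.7 against 11.2 and 13.3 (log2 change -0.93, SE 0.08, adjusted p = 0.0267), and Krt7 at 24.9 and 26.4 against 11.7 and 15.8 (log2 change -0.90, SE 0.10, adjusted p = 0.0375). S100a6, Lmna and Nes passed without the block.

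Calls on the metabolic lists went in both directions. Of 33 glycolysis and hypoxia genes 28 lay above GFP at both passages, against 33.5% of all genes, and the median was 0.38. Before adjustment 20 were higher and 0 lower at p under 0.05, and 9 and 0 by voom with the block. Over all tested genes these counts were 1810 and 1367, and 861 and 635 by voom. Ndrg1, a gene known to rise in hypoxia, was the one called by limma-trend, where 1.22% of all genes rose. It was at 126 and 78.8 against 220 and 147 (log2 change 0.85, SE 0.09, adjusted p = 0.0354). Plin2, which coats lipid droplets, rose from 19.4 and 17.9 to 43.3 and 33.1 (log2 change 1.00, SE 0.09, adjusted p = 0.0296). It was 1 of 2 called members, both higher, of 27 PPAR and fatty acid oxidation genes, where 1.22% of all genes rose. The median of that list was -0.07. Fads1, a fatty acid desaturase, rose from 62.4 and 75.6 to 101 and 123 (log2 change 0.69, SE 0.04, adjusted p = 0.0145) as the called one of 35 cholesterol and fatty acid synthesis genes, where 1.22% of all genes rose. Of 27 retinoid genes 1 rose, Sdr16c5, and 3 fell, Adh4, Rbp2 and Adh1, against 1.22% and 0.877% of all genes. At both passages 7 lay above GFP and 11 below, with a median of -0.09. Adh4, an alcohol dehydrogenase that oxidises retinol, was at 45.0 and 23.3 against 8.40 and 6.77 (log2 change -2.03, SE 0.16, adjusted p = 0.0226). Of 55 glutathione and conjugation genes 31 lay below GFP at both passages and 9 above, against 29.8% and 33.5% of all genes. Called rises were 2 and falls 3, against 1.22% and 0.877% of all genes. Limma-trend called 0 of 64 nuclear-encoded respiratory chain genes (1 above and 3 below GFP at p under 0.05 before adjustment, 1 and 0 by voom), 0 of 16 bile acid genes (7 and 3, and 5 and 1 by voom) and 0 of 25 amino acid and peptide transport genes (3 and 5, and 2 and 6 by voom). Cyp27a1, a sterol hydroxylase of bile acid synthesis, was at 2.36 and 2.37 against 1.08 and 0.885 (adjusted p = 0.0665), and Slc6a20a, an imino acid transporter, at 50.04 and 19.3 against 24.4 and 13.2 (adjusted p = 0.0681). Of all genes named in this account of metabolism, Sdr16c5 passed without the block.

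**Figure D4:**
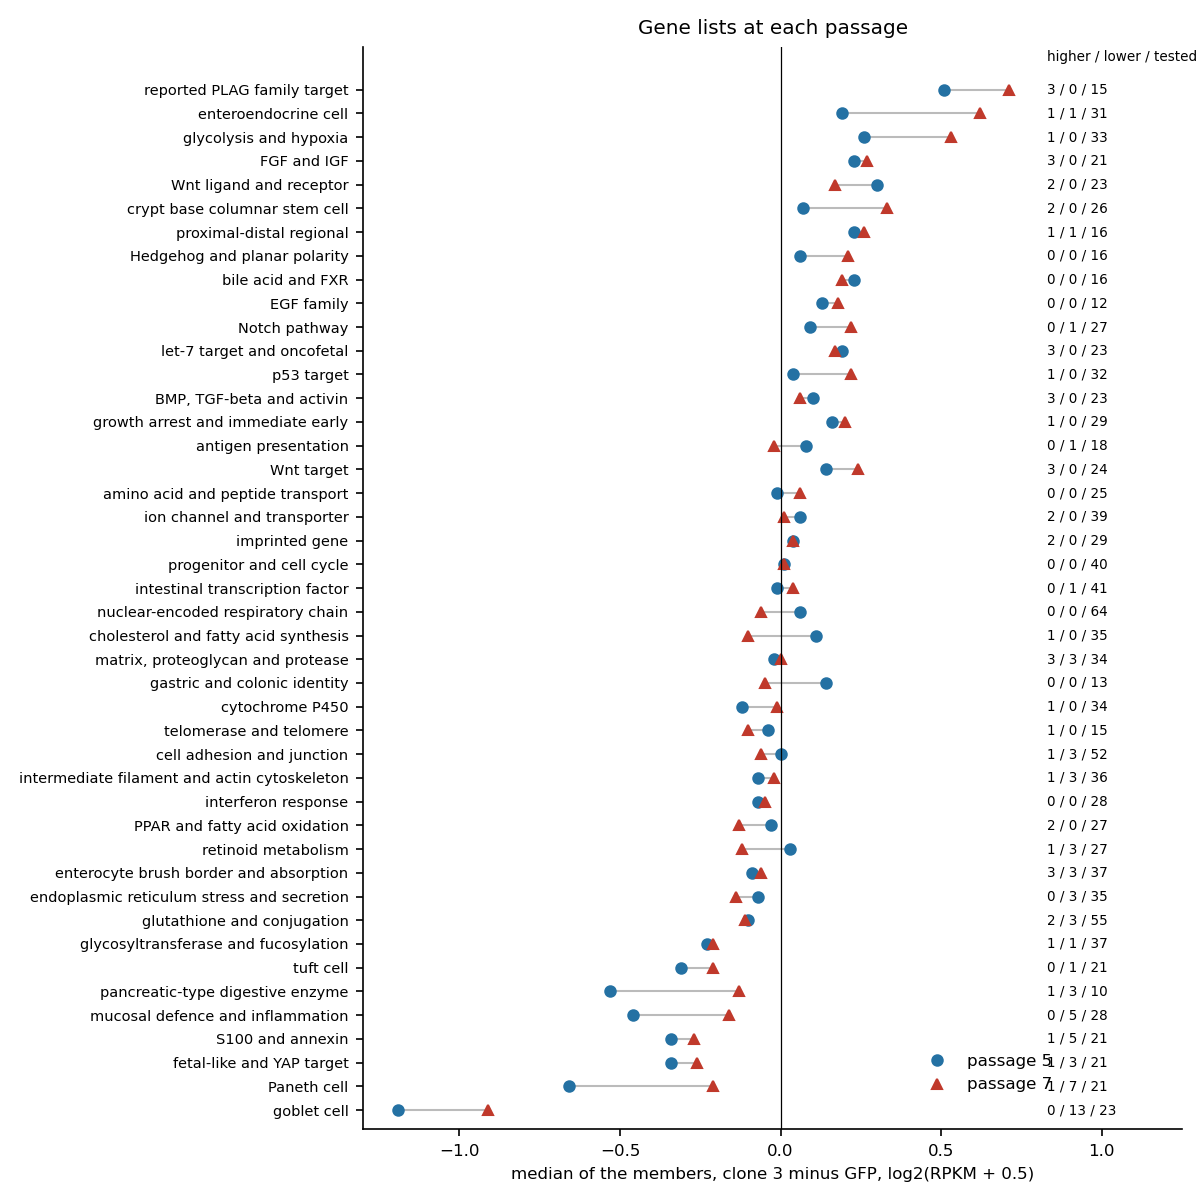
Each row is a gene list with at least 10 tested members, ordered by the median over both passages, and the x axis is the median difference between clone 3 and GFP in log2(RPKM + 0.5), with a circle for passage 5 and a triangle for passage 7. The figures at the right give members called higher, called lower and tested. Goblet genes lie farthest to the left at -1.19 and -0.91, and reported PLAG family targets farthest to the right at 0.51 and 0.71.

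Of 34 matrix, proteoglycan and protease genes 3 rose and 3 fell, against 1.22% and 0.877% of all genes. Among the falls was Mmp14, which passed the filter through GFP alone and had to differ, so its call says nothing about the list. Sdc2, a heparan sulfate proteoglycan, rose from 0.0544 and 0.306 to 2.28 and 2.88 (log2 change 2.20, SE 0.18, adjusted p = 0.0241), and Sdc1, its epithelial relative, from 49.7 and 55.3 to 74.0 and 76.1 (log2 change 0.51, SE 0.06, adjusted p = 0.0369). Hspg2, the basement membrane proteoglycan perlecan, fell from 14.5 and 24.99 to 8.36 and 15.04 (log2 change -0.74, SE 0.06, adjusted p = 0.0201; 0.727 without the block). The ranges of the 2 lines overlapped for Hspg2, as clone 3 at passage 7 lay above GFP at passage 5. St3gal1, a sialyltransferase, rose from 2.48 and 3.97 to 16.7 and 12.5 (log2 change 2.03, SE 0.25, adjusted p = 0.0428), with 4.25 and 4.24 in clone 1. Of 37 glycosyltransferase genes 24 lay below GFP at both passages, against 29.8% of all genes. At p under 0.05 before adjustment 16 were lower and 2 higher, against 1367 and 1810 of all 16314 genes. By voom 14 were lower and 2 higher, against 635 and 861 of 16309. Galnt4, which starts mucin-type glycans, was the one called lower by limma-trend, at 23.9 and 29.1 against 16.7 and 19.7, where 0.877% of all genes fell. Tert, the catalytic subunit of telomerase, rose from 4.71 and 4.72 to 9.72 and 9.72 (log2 change 0.97, SE 0.09, adjusted p = 0.0309), and was at 5.44 and 4.62 in clone 1. It was the called one of 15 telomere genes, where 1.22% of all genes rose. None of Sdc2, Sdc1, Hspg2, St3gal1, Galnt4 and Tert passed without the replicate block.

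Further called list members were of several kinds. Prox1, a homeobox factor on the Wnt target list, rose from 0.944 and 1.49 to 2.88 and 5.61 (log2 change 1.42, SE 0.16, adjusted p = 0.0381), and Psrc1, a spindle protein on the p53 target list, from 2.80 and 4.17 to 7.29 and 16.9 (log2 change 1.57, SE 0.19, adjusted p = 0.0397). Tfcp2l1, an epithelial transcription factor, fell from 4.91 and 4.62 to 1.56 and 1.66 (log2 change -1.32, SE 0.11, adjusted p = 0.0253), the one called of 41 intestinal transcription factors, where 0.877% of all genes fell. Of 13 gastric and colonic identity genes limma-trend called 0 (5 above and 4 below GFP at p under 0.05 before adjustment, 4 and 3 by voom), and Car4, a membrane carbonic anhydrase, was at 0.796 and 0.554 in GFP and 0.0916 and 0 in clone 3 (adjusted p = 0.109). Over all tested genes the counts before adjustment were 1810 and 1367, and 861 and 635 by voom. Aqp3, a basolateral water and glycerol channel, rose from 3.19 and 1.35 to 7.28 and 3.23 (log2 change 1.04, SE 0.10, adjusted p = 0.0309). Among junction genes Cldn8, a claudin, rose from 0.281 and 1.17 to 2.24 and 3.72 (log2 change 1.57, SE 0.19, adjusted p = 0.0401). L1cam, a neural and epithelial adhesion molecule, fell from 15.7 and 18.1 to 8.66 and 10.3 (log2 change -0.81, SE 0.05, adjusted p = 0.015). Rnase1, a secreted ribonuclease, fell from 33.2 and 39.7 to 18.6 and 22.6 (log2 change -0.81, SE 0.04, adjusted p = 0.00967), with 33.7 and 40.01 in clone 1. Sult1c2, a sulfotransferase, rose from 4.01 and 4.52 to 10.4 and 10.5 (log2 change 1.20, SE 0.12, adjusted p = 0.0325). Of these genes Tfcp2l1 and Sult1c2 passed without the replicate block.

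Ddx3y, a Y-linked RNA helicase, was nearly absent from clone 3 while the Y-linked genes Kdm5d, Eif2s3y and Uty were not. It lies on chromosome Y at 1260771 to 1286629, minus strand, and was at 11.3 and 11.95 in GFP, 11.3 and 12.2 in clone 1 and 0.0115 and 0.0638 in clone 3, or 974 and 856 reads in GFP against 1 and 5 in clone 3. This is -4.50 on the log2 scale (SE 0.09, adjusted p = 0.00149) and passed without the block. Inside its span lie 2 pseudogenes, Gm4017 (1268548 to 1268885) and Gm18665 (1277313 to 1277582), both on the same strand. Gm4017 had 13 and 11 reads in GFP, 9 and 12 in clone 1 and 0 and 0 in clone 3, at least 8.36-fold lower against a floor of 3 reads over both libraries that leaves out counting error in GFP (exact 95% upper limit of the ratio 0.159; log2 change -2.51, SE 0.20, adjusted p = 0.0233). Gm18665 had 9 and 4, 11 and 4 and 0 and 0 reads, at least 4.53-fold lower by the same floor (exact upper limit of the ratio 0.314), and was not called (adjusted p = 0.0572). Reads of the pseudogenes and of the gene they overlap cannot be told apart.

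The flanking gene Uty (1096861 to 1245759), a histone demethylase relative, was at 7.11 and 7.93 in GFP and 7.18 and 8.40 in clone 3. Eif2s3y, a translation initiation factor subunit, was at 19.1 and 17.9 against 21.4 and 21.7, and Kdm5d, a histone demethylase, at 4.94 and 5.52 against 5.13 and 5.28. None of the 3 was called (adjusted p 0.802, 0.138 and 0.99). All 3 lie on the same side of Ddx3y. Past its other end the next tested gene, Gm21857, starts at 90753057, so that flank was not seen. Erdr1, also at that far end, was at 3.27 and 4.71 in GFP and 1.44 and 1.24 in clone 3 and was not called (adjusted p = 0.0542). Ddx3x, the X-linked relative of Ddx3y, was at 97.4 and 98.1 against 98.1 and 93.4. Xist was at 0.0504 and 0.0648 in GFP and 0.0871 and 0.0888 in clone 3.

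**Figure D5:**
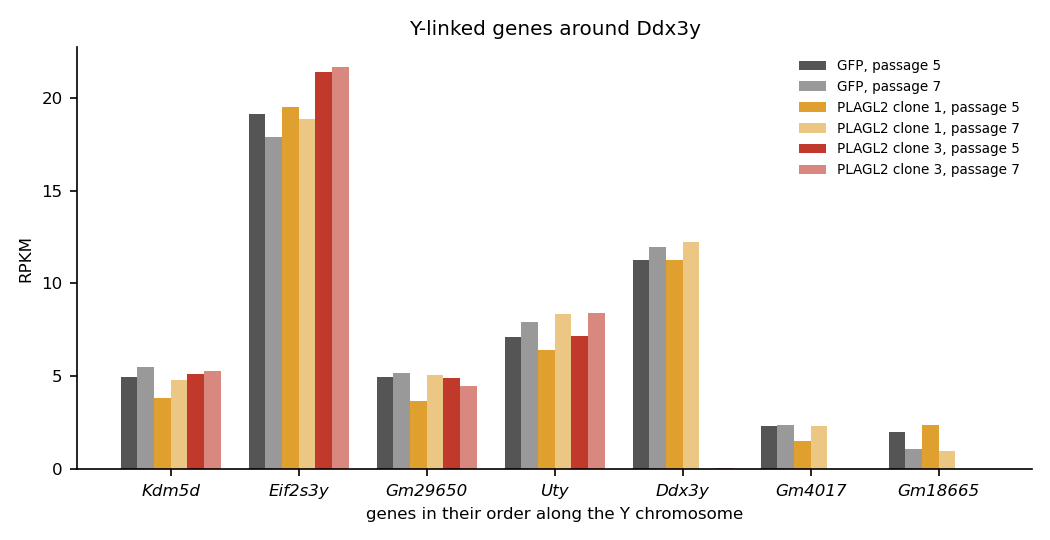
Bars give RPKM, from 0, in each of the 6 libraries for Y-linked genes in their order along the chromosome, grey for GFP, yellow for PLAGL2 clone 1 and red for PLAGL2 clone 3, with the paler bar of each pair for passage 7. Each bar is 1 library, so no error bars are drawn. Clone 3 has no visible bar at Ddx3y, Gm4017 and Gm18665 and full bars at Kdm5d, Eif2s3y, Gm29650 and Uty.

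Chromosome medians stayed close to 0. Over the autosomes and chromosome X the median log2 change lay between -0.010 (chromosome 9) and 0.036 (chromosome 7). Neighbouring tested genes were called in the same direction in 9 cases, of which 3 are pairs that overlap. The other 6 include Sdc2 and Cpq, both higher, and Cd177 and Ceacam10, both lower.

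By symbol, 156 families had at least 10 tested members, and 110 of them had 0 calls. The largest shares called were in the group that holds the S100 genes, with 1 higher and 3 lower of 13 (S100a6, S100a16, S100a11 and S100g), and in the keratins, with 2 lower of 10 (Krt7 and Krt20). Next came the annexins, with Anxa13 and Anxa4 lower of 12, and the hydroxysteroid dehydrogenases, with Hsd17b2 and Hsd3b7 lower of 12. Hsd17b2, which inactivates sex steroids, was at 4.52 and 5.56 in GFP and 0.938 and 1.55 in clone 3 (log2 difference -1.68, SE 0.16, adjusted p = 0.0309). By biotype, 4 of 730 antisense genes were higher and 0 lower, 3 of 407 lincRNA genes were higher and 1 lower, and 180 of 12094 protein-coding genes were higher and 135 lower, against 1.22% and 0.877% of all genes.

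Of the 342 called genes 247 stood on none of the 50 lists. A few of these were singled out after their values were seen. Piwil2 and Tdrd1, which act in the piRNA pathway of germ cells, were at 0.588 and 0.680 in GFP against 6.73 and 5.44 in clone 3 and at 0 and 0.0400 against 1.65 and 2.83 (log2 changes 2.53 and 2.36, SE 0.16 and 0.25, adjusted p 0.0145 and 0.0338). In clone 1 they were at 1.30 and 1.15 and at 0.0106 and 0.0595. Rec8, a cohesin subunit of meiosis, rose from 8.72 and 7.21 to 30.1 and 17.4 (log2 change 1.47, SE 0.16, adjusted p = 0.0352), with 7.73 and 6.67 in clone 1. Kcns3, a potassium channel subunit, had 0 and 0 reads in GFP and 145 and 94 in clone 3, at least 76.3-fold higher against a floor of 3 reads over both GFP libraries that leaves out counting error in clone 3 (exact 95% lower limit of the ratio 61.5; adjusted p = 0.0297). Of the 199 higher genes 7, among them Kcns3, Tdrd1 and Wnt5a, passed the filter through clone 3 alone, while 2 of the 143 lower ones, Mmp14 among them, passed through GFP alone, and these genes had to differ. The 7 leave out genes such as Inha and Sfta2, which passed only with clone 3 libraries beside clone 1 at passage 7 (0.879 and 0.538). For such genes too the filter favoured a rise.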

How the data were processed

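Polyadenylated RNA of 6 enteroid libraries was sequenced. The authors deposited RPKM values per gene. Per the submitters' processing notes, the build was mm10, and STAR, Subread with featureCounts, and edgeR are listed without role or version. A deposited RPKM table per transcript was not used. Of 41383 entries, 614 repeats were dropped. Genes with an RPKM of at least 0.5 in 2 or more of the 6 libraries were kept.

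Values were analysed as log2(RPKM + 0.5), a scale that understates the change of low genes, with limma-trend (limma 3.58.1, R 4.3.3) over all 3 lines, with passage as a replicate block and 2 residual degrees of freedom, two-sided, and Benjamini-Hochberg adjustment at 0.05. The block was used because the labels tie each letter to the same passage in all lines, A to 5 and B to 7. Deviations of same-lettered libraries from their line means correlated at 0.322, 0.276 and 0.278 over genes. The fit was tested on simulated data.

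Depth was recovered from RPKM steps. With GENCODE M21 lengths, which covered 98.74% of identifiers, 67.7% of genes above 0 gave whole reads within a tolerance of 0.02, as did another 32.2% once a length was fitted to the gene. Recovered reads made up 99.62% to 99.65% of each library. Voom on these reads was an alternative and called 861 genes higher and 635 lower with the block. A floor of 3 reads is an RPKM of 0.173 to 0.218 for a gene of 1 kb and covers counting error only. Coordinates and strand are those of GENCODE M21. Promoter sequences are from RefSeq (GRCm38.p6).

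The genes named are Plagl2, the 15 strongest rises and 15 strongest falls among called genes with an established symbol, ranked by the smaller of the 2 passage differences, then up to 4 called members of each list by size, or 2 members where none was called, then Y-linked genes and Xist, and called members of the families with the largest shares called. Further genes are named where a list's result or a marker turned on them. The members, lists and tests were chosen with earlier results of these data known. Of 1581 listed symbols 1560 were in the table. Values of some individual genes are not reported here.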

Additional observations from a re-analysis of the deposited data

Results flagged for a closer look

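The median differences of 8 of the 44 lists with at least 10 tested members lay on opposite sides of 0 at the 2 passages, with 1 library of each line at each passage, and the difference between passages was not tested. From passage 5 to passage 7 the median changed by -0.193 for gastric and colonic identity, -0.207 for cholesterol and fatty acid synthesis, -0.147 for retinoid metabolism, -0.12 for the nuclear-encoded respiratory chain and -0.099 for antigen presentation. It changed by 0.065 for amino acid and peptide transport, 0.052 for intestinal transcription factors and 0.028 for matrix, proteoglycan and protease genes. The medians of these lists over both passages lay between -0.09 and 0.12.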

How the results depend on the processing

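Of 16 alternative settings, pseudocounts of 0.1 and 1, an RPKM filter of 1, quantile normalization and median centring kept both counts of called genes within 1.5 times of 199 and 143, although median centring moved the split to 187 higher and 185 lower. Without the replicate block the counts were 32 and 25, with clone 3 and GFP libraries only, block kept, 17 and 13, with no filter 51 and 40, with voom on recovered reads and the block 861 and 635, and with voom and no block, added after seeing the data, 86 and 52. Leaving out 1 library gave 1 to 19 higher and 1 to 13 lower genes, in fits with 1 residual degree of freedom. The 2-fold counts at both passages were 359 and 217 with a pseudocount of 0.1 and 104 and 64 with 1. The Plagl2 change of 0.68 was not called without the replicate block (0.68), with clone 3 and GFP only (0.68) or with no filter (0.68), nor without any 1 library (0.62 to 0.75). Of the 107 named genes and called list members followed through the settings, 0 changed sign. With clone 3 and GFP libraries only 89 were lost, without the replicate block 79, with no filter 68, with voom and no block 62, and with voom and the block 0. The sign of the list median was kept in every setting for 38 of 49 lists, the goblet list among them (-1.18 to -0.93) and the Paneth list too (-0.71 to -0.23). It changed for 11 lists, whose medians lay between -0.19 and 0.12. The cause was not tested. With 2 libraries a line, depth limited the values of genes such as H19 in GFP and Ddx3y and Mmp14 in clone 3, which rest on 6 reads or fewer.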
